A study of Mus musculus with 20 samples.

Results

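The muscles that move the eye are largely spared in muscular dystrophy of the dystrophin type, and the comparison described here set extraocular muscle of mdx mice against extraocular muscle of control mice. Its members were chosen by sample title: the 5 arrays titled as extraocular muscle of mdx mice and the 5 titled as extraocular muscle of control mice, 10 of the 20 arrays of the series. All mice were 8 weeks old, and total RNA was hybridised to one-colour Affymetrix arrays. The other 10 arrays hold leg muscle of the same ages and genotypes, labelled gastrocnemius and soleus in controls and only as leg in mdx mice, and are used here to show where extraocular muscle differed. The mdx mouse lacks dystrophin because of a stop mutation in Dmd that all its cells carry. The labels name no strain, sex, pooling or hybridisation batch. They describe the control arrays by the title of a study of extraocular muscle and the mdx arrays by the maker's standard protocol, so if the groups were handled apart, handling and genotype cannot be told apart. Arrays of a group are labelled as replicates, with nothing to say whether each is its own animal. The p-values therefore measure only how far these samples spread, and that spread may be technical.

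Dystrophin ties the actin cytoskeleton of a muscle fibre through a complex of membrane proteins to the matrix outside it. In limb muscle its loss leaves the membrane fragile: fibres die, macrophages enter, satellite cells rebuild fibres that pass again through embryonic gene programs, and collagen is laid down. Extraocular fibres are thin, richly supplied with mitochondria and unusual in the mix of myosins they hold, and they escape most of this damage in patients, dogs and mice.

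Signals are deposited intensities scaled so that the trimmed mean of each array is 500. Of 12588 non-control probe sets, the 7204 that reached 200 on at least 5 of the 20 arrays were tested in limma, with all 20 arrays as 4 groups and values under a floor of 50 raised to it. A probe set passed at an adjusted p under 0.05, with Benjamini-Hochberg adjustment over all 7204. Between 49.6% and 52.0% of probe sets reached 200 on each extraocular array. The array of mdx 5 stood furthest from the others, with a mean correlation of 0.898 with its own group and 0.892 with the controls, and control 1 stood apart for interferon induced genes.

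The labelled tissue was checked against its markers. Myom2, an M-band protein that extraocular muscle is known to make little of, was at 16.8 to 96.4 in extraocular control arrays, at least 44.9-fold below leg control arrays (limma adjusted p = 2.36e-12). Hoxd8, which marks cells of the trunk and limbs, was at 166 to 212 in extraocular control arrays, 3.45-fold below leg (limma adjusted p = 0.0176), although leg control arrays ran from 94.9 to 1416. Hoxd10, of the same class, did not separate the tissues, with a mean of 336 in extraocular and 354 in leg control arrays. The gland secretion gene Bpifa2, on the list of epithelial and gland genes, was at 3030.0 to 4634 over all 10 extraocular arrays, with both genotypes overlapping; this gene was named after its values were seen.

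Dmd itself was read first. Its signal was 325, 204, 246, 264 and 302 on control arrays 1 to 5 and 102, 102, 113, 104 and 175 on mdx arrays 1 to 5. All mdx arrays lay below all controls, and mdx 5 was the highest of its group. The difference did not pass (mdx 119 ± 31.7 against 268 ± 47.4 in control arrays, mean ± SD, n = 5 each, as for all pairs of means here with mdx first, log2 difference -1.18, SE 0.29, limma adjusted p = 0.233), except with a floor of 100 (limma adjusted p = 0.0275). In leg muscle Dmd was at 77.5 ± 32.3 against 149 ± 40.2, and the difference between the muscles did not pass (log2 0.26, limma adjusted p = 0.811). Since a stop mutation can leave part of the transcript in place, the labels cannot be checked strictly by it.

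The rest of the dystrophin complex gave small differences. Of its 15 tested genes, Dmd included, 0 passed and the median log2 difference was -0.03, against -0.02 over all tested probe sets. Dag1, which makes both chains of the dystroglycan that binds laminin outside the fibre, was at 4066 ± 429 against 4482 ± 797. The sarcoglycan Sgca was at 2372 ± 520.4 against 2481 ± 260.0 and sarcospan, Sspn, at 3628 ± 399 against 3585 ± 293. Their 95% intervals for the log2 difference were -0.36 to 0.10, -0.36 to 0.19 and -0.23 to 0.26, so each excluded a change of 1.5-fold. The laminin receptors Itgb1 (-0.37 to 0.21) and Itga7 (-0.38 to 0.31) were held to the same bound. Itga7, Sgca and Dag1 passed in mdx leg muscle, with log2 differences of 0.59, -0.61 and -0.40. The difference of effects between the muscles did not pass for Sgca and Dag1 (limma adjusted p = 0.111 and 0.4), nor for Itga7 (limma adjusted p = 0.146). Utrn, the dystrophin relative that can stand in for it, was at 289, 246, 301, 363 and 87.8 on control arrays and 255, 262, 159, 54.6 and 334 on mdx arrays. Control 5 and mdx 4 were low and the groups overlapped (log2 difference -0.36, interval -1.23 to 0.50).

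Across the array, mdx and control extraocular muscle differed little in size. Of the 7204 probe sets, 73.7% had an estimated difference within 1.2-fold, against 46.7% in leg muscle, and the median absolute log2 difference was 0.15 against 0.29. The log2 differences ran from -0.79 at percentile 1 to 0.87 at percentile 99. An estimate of 2-fold or more was reached by 81 probe sets (1.12%) in extraocular and 558 (7.75%) in leg muscle. At an unadjusted p under 0.05, 184 probe sets were higher (2.55%) and 185 lower (2.57%) in mdx, 369 in all, where chance gives 360.2. After adjustment 6 passed (0.0833%), 3 higher (0.0416%) and 3 lower (0.0416%). In leg muscle 772 rose (10.7%) and 515 fell (7.15%). Leg control arrays spread widely for some genes, as from 437 to 12725 for Atp2a1, and the part of this spread in leg estimates was not tested. The labels name gastrocnemius and soleus only for leg controls. In all leg differences given here, muscle mix and genotype therefore cannot be told apart.

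**Figure D1:**
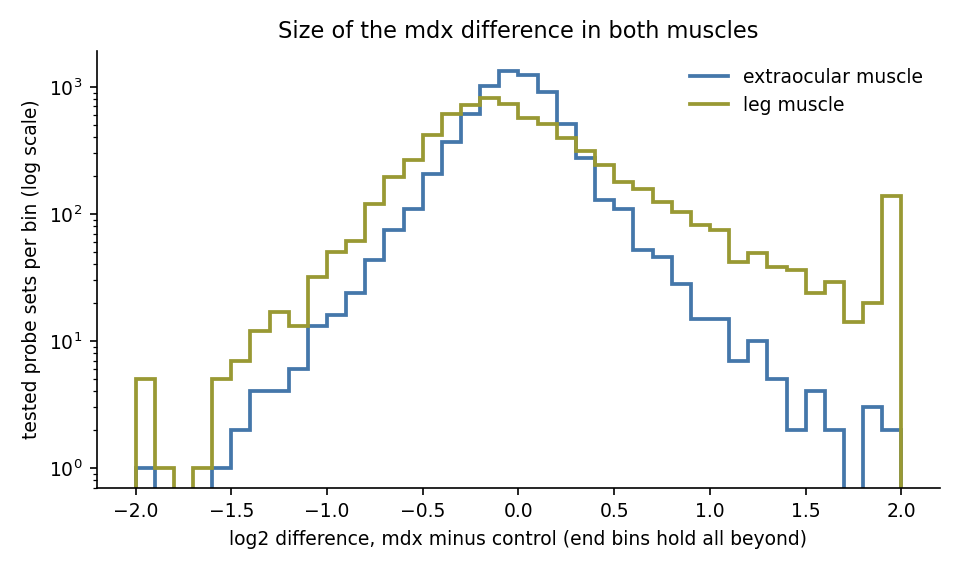
Number of tested probe sets (log scale) by log2 difference, mdx minus control, in bins 0.1 wide, for extraocular (blue) and leg muscle (olive); the end bins hold all values beyond 2 in size. The extraocular curve is narrower, with 3 probe sets beyond 2 in size against 121 in leg muscle.

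Mt2, a metallothionein that binds zinc and copper and is induced by metals, glucocorticoids and inflammation, was the gene with the clearest rise. Its signal was 4025, 1963, 2235, 2386 and 2381 on control arrays 1 to 5 and 8552, 6308, 5127, 6036 and 6178 on mdx arrays 1 to 5. Control 1 was the highest control, and still below every mdx array. The rise was 2.53-fold (log2 difference 1.34, SE 0.20, limma adjusted p = 0.00221) and passed without any single array. Its neighbour Mt1 makes the sister protein and is commonly induced along with it. Mt1 was at 3309.9, 2090.1, 2132, 2257 and 1985 on control and 3158, 2480.0, 2679.9, 2956 and 2304 on mdx arrays, so the groups overlapped and it did not pass (log2 difference 0.22, interval -0.26 to 0.70, limma adjusted p = 0.999, log2 difference 0.35 without control 1). In leg muscle both rose, by 2.37 for Mt2 and 1.89 for Mt1 on the log2 scale. The leg effect was larger for both genes, by 1.03 for Mt2 (limma adjusted p = 0.029) and by 1.67 for Mt1 (limma adjusted p = 0.00287).

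Ctss, a cathepsin of the lysosomes of macrophages and dendritic cells, was at 898, 502, 503, 829.6 and 699.9 on control and 1528, 1235, 921, 1486 and 1898 on mdx arrays. The lowest mdx array, mdx 3, lay just above the highest control. The rise was 2.06-fold (log2 difference 1.04, SE 0.19, limma adjusted p = 0.0259). The call was lost without control 2, control 3, control 5, mdx 1, mdx 4 or mdx 5 (limma adjusted p of up to 0.134) and in a fit of the 10 extraocular arrays alone (limma adjusted p = 0.209). It was also lost with no intensity trend (limma adjusted p = 0.0549) and without mdx 5 and control 1 together (limma adjusted p = 0.0506).

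Krt6a, a keratin of stratified and stressed epithelium, had the largest rise among the probe sets that passed. On the passing probe set it was at 271, 109, 147, 125 and 137 on control and 1082, 843, 420.0, 358 and 1628 on mdx arrays. The mdx arrays themselves fell into a higher set, mdx 1, 2 and 5, and a lower set, mdx 3 and 4. The rise was 4.96-fold (log2 difference 2.31, SE 0.43, limma adjusted p = 0.0259). The call was lost without any of control 2 to 5, mdx 1, mdx 2 or mdx 5 (limma adjusted p of up to 0.134) and in the fit of the 10 extraocular arrays alone (limma adjusted p = 0.0638). A brighter probe set of the gene was at 525, 813, 494, 710.4 and 659 on control and 1429, 1690.3, 1073, 1043 and 3276 on mdx arrays, also without overlap. That probe set did not pass (log2 difference 1.30, limma adjusted p = 0.0728).

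Erdr1 and AI506816 were the named genes that fell. Erdr1, named for a factor linked to erythroid differentiation, was at 2166, 2174, 2084, 1960.1 and 1589.8 on control and 688, 999.9, 683, 606 and 607 on mdx arrays. Every mdx array lay far below every control, with mdx 2 the highest of its group. The fall was 2.82-fold (log2 difference -1.49, SE 0.18, limma adjusted p = 0.000195) and it passed without any single array. It fell in leg muscle too (log2 difference -1.89). The suffix of its probe set marks probes shared within a family, and a second probe set of the gene gave 444 ± 132 against 604 ± 194 and did not pass. AI506816, a locus without a gene name, was at 1189, 1301, 1417, 1119.9 and 629 on control and 343, 425, 409, 604 and 385 on mdx arrays. Control 5 was low for its group, only just above mdx 4. The fall was 2.57-fold (limma adjusted p = 0.017) and was lost without control 2, control 3, control 4, mdx 1 or mdx 5 (limma adjusted p of up to 0.0993). The sixth probe set that passed, also with a fall, is assigned to more than 1 gene and is left unnamed.

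**Figure D2:**
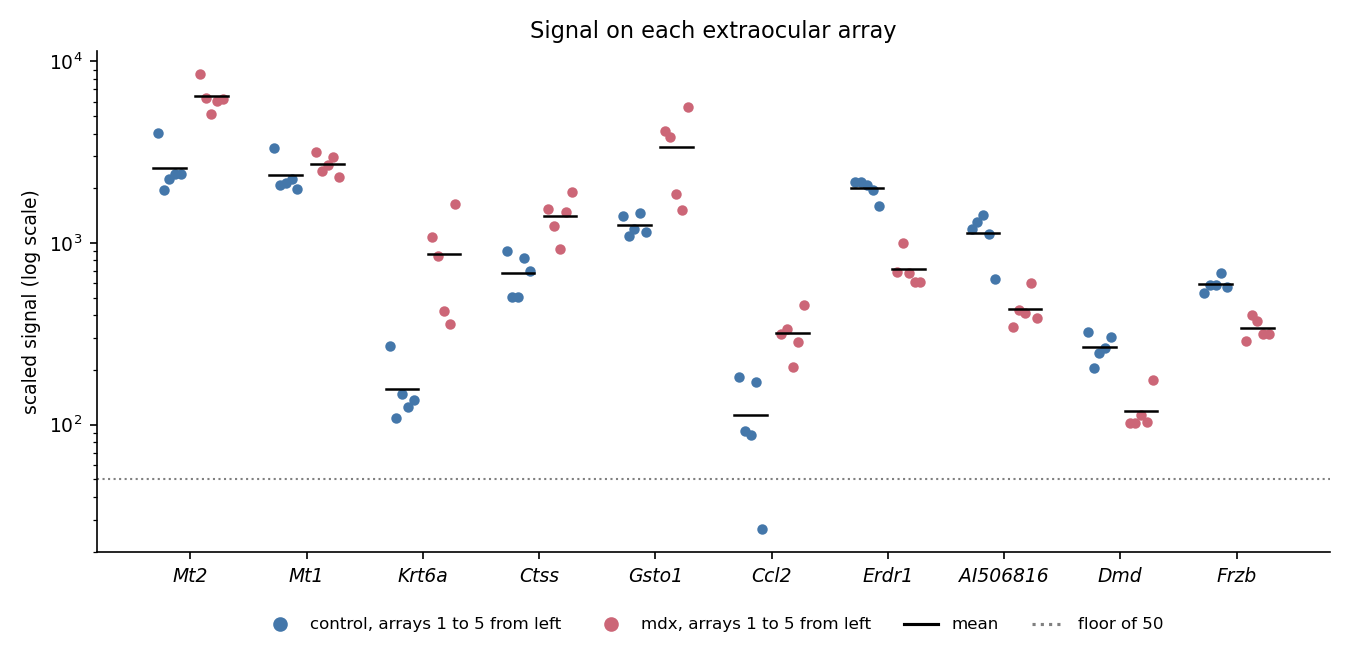
Scaled signal (log scale) of 10 genes on control (blue) and mdx (red) extraocular arrays, 5 each in array order from left to right, with bars at the means and the floor of 50 dotted. Mt2, Krt6a, Ctss, Erdr1 and AI506816 passed; Gsto1, Ccl2, Dmd and Frzb did not pass although their groups do not overlap, and Mt1 overlaps.

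RefSeq promoter sequences (build GRCm38.p6) were held for 3 of the 5 named genes that passed. They are shown because these are the genes with a called change in extraocular muscle. Each is the 250 bases before the annotated start, 5′ to 3′ on the gene's strand, at chr8:94172368-94172617 on the plus strand for Mt2, chr3:95526536-95526785 on the plus strand for Ctss and chr5:23712668-23712917 on the minus strand for AI506816. Capitals mark matches on either strand to the core of the metal response element (TGCACNC or TGCGCNC, N for any base), which the zinc sensor of metallothionein genes binds, or to the interferon response element (GAAA, any 2 bases, GAAA).
Mt2: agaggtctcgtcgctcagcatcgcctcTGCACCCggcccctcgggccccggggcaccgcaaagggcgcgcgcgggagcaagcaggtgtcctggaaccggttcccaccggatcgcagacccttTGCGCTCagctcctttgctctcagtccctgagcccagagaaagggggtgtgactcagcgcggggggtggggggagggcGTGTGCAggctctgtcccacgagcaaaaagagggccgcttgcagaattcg
Ctss: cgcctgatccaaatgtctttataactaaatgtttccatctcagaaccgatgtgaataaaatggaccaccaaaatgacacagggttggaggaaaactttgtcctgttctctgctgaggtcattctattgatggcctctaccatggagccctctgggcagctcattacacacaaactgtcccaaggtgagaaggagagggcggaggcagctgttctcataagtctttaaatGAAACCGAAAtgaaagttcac
AI506816: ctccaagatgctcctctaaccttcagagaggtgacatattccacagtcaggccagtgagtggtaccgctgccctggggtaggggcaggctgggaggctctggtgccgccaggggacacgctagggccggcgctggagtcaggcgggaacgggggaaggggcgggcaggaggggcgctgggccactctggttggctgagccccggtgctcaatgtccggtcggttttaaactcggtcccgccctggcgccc
The Mt2 window held 3 matches to the metal element, starting 223, 128 and 50 bases before the start, 2 on the plus strand and 1 on the minus strand. The Ctss window held 1 match to the interferon element, starting 21 bases before the start, and the AI506816 window held 0 of either. Of all 32851 promoters in the table cut to the same length, 21.4% held at least 1 match to the metal element and 2.98% to the interferon element, so a metal match alone is common. A match describes letters only; no binding was measured.

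The 5 mdx and 5 control arrays did not overlap for 83 probe sets (1.15%), 36 higher and 47 lower in mdx, against 13.6% of probe sets in leg muscle. If labels were assigned at random, a probe set would separate fully in either direction with a probability of 0.00794. Many of the 83 can therefore be chance separations. Of the 83, 67 had an estimate under 2-fold and 58 an unadjusted p under 0.05; 72 had a single gene symbol. Those higher in mdx extraocular muscle were 33 named probe sets of 32 genes; 14 of the 33 also rose in mdx leg muscle and 0 fell there, where 10.7% of all probe sets rose and 7.15% fell. Those lower were 39 genes, of which 9 also fell in leg muscle and 2 rose there. The filter on signal counted leg arrays too, so a probe set dim in extraocular muscle could be tested because a leg group was bright. For such members a change in leg muscle is not independent of the filter, and their number was not counted. The largest of the differences without overlap are described next, and apart from the genes above, none passed.

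Ankrd1, a stress-induced protein of the sarcomere's titin filament, was at 76.4, 92.8, 101, 60.1 and 44.8 on control and 277, 238, 128, 337 and 178 on mdx arrays. The fold, here and below the ratio of geometric means with signals under the floor raised to it, was at least 2.98, with 1 control array at the floor (limma adjusted p = 0.074). Ccl2, the main attractant of monocytes, was at 184, 91.8, 88.1, 171 and 26.5 on control and 316, 335, 207, 286 and 455 on mdx arrays, a fold of at least 2.95 on that scale, again with 1 control array at the floor (limma adjusted p = 0.156). Mmp3, a matrix-degrading protease, was at 208, 209, 231, 262 and 296 on control and 626, 391, 499.8, 373 and 614 on mdx arrays, 2.05-fold apart (limma adjusted p = 0.0851). All 3 rose in mdx leg muscle, by 3.52, 4.07 and 2.95 on the log2 scale, and more than in extraocular muscle (differences of 1.95, 2.50 and 1.91, limma adjusted p = 0.0123, 0.00501 and 0.000548). On mdx arrays Chil3, a chitinase-like protein of macrophages (194 ± 9.50 against 125 ± 35.2), and Evi2a, a membrane protein (112 ± 31.5 against 54.1 ± 23.1), also lay above every control, and both rose in leg muscle. Evi2a stayed under 200 on every extraocular and leg control array, and Chil3 reached 200 there only on extraocular mdx 1. Both were tested only because mdx leg arrays were bright. So was Ankrd1: of extraocular arrays only mdx 1, 2 and 4 reached 200, and leg controls averaged 119 with a maximum of 221. For these genes the rise in leg muscle is not independent of the filter. Ccl2 stayed under 200 on every control array of both muscles, at most 184 and 133, and was tested through mdx arrays.

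Others lay higher in extraocular muscle without a called rise in leg muscle. Gsto1, a glutathione transferase that also reduces ascorbate, was at 1398, 1093, 1191, 1455 and 1154 on control and 4113, 3817, 1869.7, 1516 and 5565 on mdx arrays. As for Krt6a, mdx 1, 2 and 5 were high and mdx 3 and 4 lay close to the controls (2.41-fold on average, limma adjusted p = 0.074). The leg effect minus the extraocular effect was -1.54 on the log2 scale (limma adjusted p = 0.0165). Plet1, a surface protein of epithelial progenitors, was at 431 ± 281 against 111 ± 44.1, and the copper transporter Atp7b at 181 ± 76.1 against 86.0 ± 6.91. The difference between the muscles passed for Atp7b (log2 -1.58, limma adjusted p = 0.0421) and did not for Plet1 (log2 -1.44, limma adjusted p = 0.268). The cell polarity adaptor Lin7c was at 483 ± 34.8 against 351 ± 87.9, and at 1160.5 against 1056 on a brighter, overlapping probe set. The transporter Atp13a1 (325 ± 65.5 against 186 ± 54.3) and the cell cycle repressor E2f8 (232 ± 11.8 against 159 ± 43.4) lay higher without overlap too, and these did rise in leg muscle.

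Among the 12 largest decreases without overlap, Frzb, a secreted Wnt inhibitor, was at 531, 589, 584, 684 and 571 on control and 289, 403, 373, 314 and 316 on mdx arrays. The difference was 1.75-fold and did not pass (limma adjusted p = 0.678); with a floor of 100 it did (limma adjusted p = 0.0298). Control extraocular muscle held at least 9.91-fold more Frzb signal than control leg muscle, where signals fell to 32.1, under the floor. Wfdc18, a secreted protease-inhibitor-like protein, had the largest estimate (4.08-fold, 277, 1025, 253, 375 and 413 on control and 215, 53.2, 53.8, 83.4 and 191 on mdx arrays), with control 2 far above the other controls and an interval of -3.70 to -0.36. Nr5a1, a nuclear receptor of steroid-producing cells, was at 190.4 ± 52.1 against 343 ± 71.8, and the cytochrome Cyp2c29 at 143 ± 42.0 against 259 ± 60.5. A brighter Nr5a1 probe set overlapped between the groups (log2 difference -0.37) and another had a positive estimate (0.17). The sugar transporter Slc2a8 was at 115 to 240.4 on mdx and 254 to 364 on control arrays, while its brighter probe set gave 845 against 852. The DNA end-binding protein Xrcc5 was at 332 ± 94.4 against 503 ± 95.8 and the ubiquitin ligase scaffold Cul7 at 141 ± 36.8 against 207 ± 31.4. The nuclear envelope gene Syne4 was at 349 ± 125 against 479 ± 28.2, with mdx 1 at 134 and the other mdx arrays close below the controls. The small GTPase Arf2 was at 193 ± 42.2 against 280.4 ± 44.4 and the DNA glycosylase Mpg at 156 ± 24.6 against 224 ± 16.2.

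No gene of the muscle fibre lists passed. Over 7 lists of fibre genes (fast and slow sarcomere, Z-disc and M-band, dystrophin complex, calcium handling, glycogen and glycolysis, energy buffer), 94 genes were tested, 0 passed, and the median log2 difference was 0.02. At an unadjusted p under 0.05, 2 of the 94 were higher and 2 lower, near the 2.55% and 2.57% of all probe sets. For 46 of the 94 the whole 95% interval lay within 1.5-fold, close to the 46.2% of all probe sets held to that bound, and for 75 it lay within 2-fold, as for 80.6% of all probe sets. In the fit of the 10 extraocular arrays alone 61 were held to 1.5-fold, since the spread of leg arrays no longer entered; over all probe sets that fit held 49.4%. For the slow list the count went from 2 to 8 of 10, and for the fast list from 3 to 6 of 10.

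No fast-fibre gene passed. Myh1, the IIX myosin heavy chain, was at 11963, 14896, 14904, 11916 and 16378 on control and 22949, 15599.5, 14849.8, 11730.3 and 16984 on mdx arrays, with mdx 1 the highest of all and the rest interleaved. Its interval was -0.20 to 0.62 in the 4-group fit and -0.16 to 0.57 from extraocular arrays alone. Myh4, the IIB chain, had 15615 ± 3086 against 12939.7 ± 2212 (-0.39 to 0.93 and -0.08 to 0.62). The calcium buffer Pvalb was at 6279.6, 6265, 5922, 5798 and 5488 on control and 5657, 5666, 5548, 5387 and 5923 on mdx arrays, with the groups interleaved and an interval of -0.34 to 0.18. A second Pvalb probe set varied widely, at 373, 1632, 3007, 1213 and 7612 on control and 9077, 5571, 5646, 1155 and 7811 on mdx arrays and overlapping (log2 difference 1.45, limma adjusted p = 0.955). The troponin subunits Tnnt3 (-0.27 to 0.64) and Tnni2 (-0.36 to 0.32) and the fast actinin Actn3 (-0.44 to 0.47) also had estimates near 0, and the last 2 were held to 1.5-fold.

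Atp2a1, the fast calcium pump of the sarcoplasmic reticulum, was the exception in spread. It was at 378, 2296, 2082, 478 and 2796 on control and 10183, 2199.5, 2399.6, 2599.6 and 4808 on mdx arrays, and did not pass (log2 difference 1.62, limma adjusted p = 0.958). The lowest arrays were control 1 and control 4 and the highest mdx 1 and mdx 5. The same arrays were lowest and highest in the 3′ over 5′ ratio of the Gapdh control probe sets, at -3.35 and -3.16 (log2) on control 1 and 4 and -0.54 and -0.80 on mdx 1 and 5. Cox6a2, a muscle subunit of cytochrome oxidase, was likewise low on control 1 (1823) and control 4 (1130.5) and highest on mdx 1 (12637), and Casq1, the calcium-storing protein, was at 8067 and 8035 on the former and at 19610.3 and 15983 on the latter. The same ratio of other control genes did not rank the arrays in this way. For Actb it was lowest on mdx 2 (-0.38, log2) and highest on mdx 3 (0.53). For pyruvate carboxylase it was highest on mdx 1 but lowest on mdx 4 (0.55), with control 1 at 0.57 and mdx 5 at 0.69. The Gapdh ratio was negative on every extraocular array. The part of RNA quality in the Atp2a1, Cox6a2 and Casq1 values was not tested. The Gapdh ratio was -1.27 ± 0.62 in mdx and -2.35 ± 0.84 in control arrays (two-sided exact permutation p = 0.0714, and 0.286 after adjustment over 4 quality measures), and the smallest p this design allows is 0.00794.

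Slow-fibre genes showed no called difference either. Myh7, the slow and cardiac myosin heavy chain, was at 5487, 5178, 6583, 5678 and 5413 on control and 5104, 6250.2, 7676, 4939.9 and 5837 on mdx arrays, with the groups interleaved. Its interval was -0.22 to 0.34 from extraocular arrays alone. In the 4-group fit it was -1.04 to 1.16; leg control arrays, which enter that fit, ran from 445 to 14239 for Myh7 and from 45.2 to 20216 for Myl2. Myl2, the slow regulatory light chain, was at a like level in both groups (7793 ± 736 against 8510.0 ± 1376, -0.40 to 0.17 from extraocular arrays alone). Tnni1, Tnnc1 and Tnnt1, the slow troponin subunits, had intervals of -0.21 to 0.52, -0.01 to 0.43 and -0.29 to 0.19 from extraocular arrays alone, and Casq2, the slow calsequestrin, -0.48 to 0.14. Tpm3, a slow tropomyosin, had the widest groups, with 18145, 9243, 9755, 6113 and 15832 on mdx against 6024, 10050.4, 7539, 4164 and 8616 on control arrays.

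No Z-disc, M-band or calcium handling gene passed either. The M-band protein Myom1 was at 6251 ± 830.1 against 6058 ± 543 (interval -0.29 to 0.37), the fibre scaffold Fhl1 at 10730.5 ± 2754 against 9025 ± 1986 (-0.21 to 0.69) and the Z-disc protein Myoz1 at 6874 ± 2201 against 5056 ± 1206 (-0.01 to 0.85). Myom2 stood out on this list: it was at 96.4, 25.3, 16.8, 41.1 and 19.7 on control and 77.1, 106, 128, 177 and 255 on mdx arrays. Control 1 lay within the mdx range and the other 4 controls below the floor, so the difference is at least 2.39-fold and did not pass (limma adjusted p = 0.074); it passed without control 1 (0.0208) and without mdx 1 (0.0213), both limma adjusted p. The call depended on the settings. Myom2 passed with a floor of 20 (log2 difference 2.04, limma adjusted p = 0.0147) and with values as deposited (2.09, limma adjusted p = 0.0199). It also passed with array weights (1.18, limma adjusted p = 0.0239). Over all settings its log2 difference ran from 0.52 to 2.09, with a limma adjusted p of up to 0.927. The extraocular Myom2 signals are still far below those of leg muscle. Capn3, the muscle calpain, was at 2223 ± 356 against 2248 ± 401 on its brightest probe set, while on a dim one all mdx arrays lay below all controls (224 ± 25.7 against 321 ± 33.7). Ryr1, the calcium release channel, was at 11778 ± 2019 against 11698 ± 1819.6 and its voltage sensor Cacna1s at 3760.0 ± 511 against 3980.2 ± 366, with intervals of -0.38 to 0.39 and -0.33 to 0.15. In leg muscle Cacna1s fell by 0.38 on the log2 scale.

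**Figure D3:**
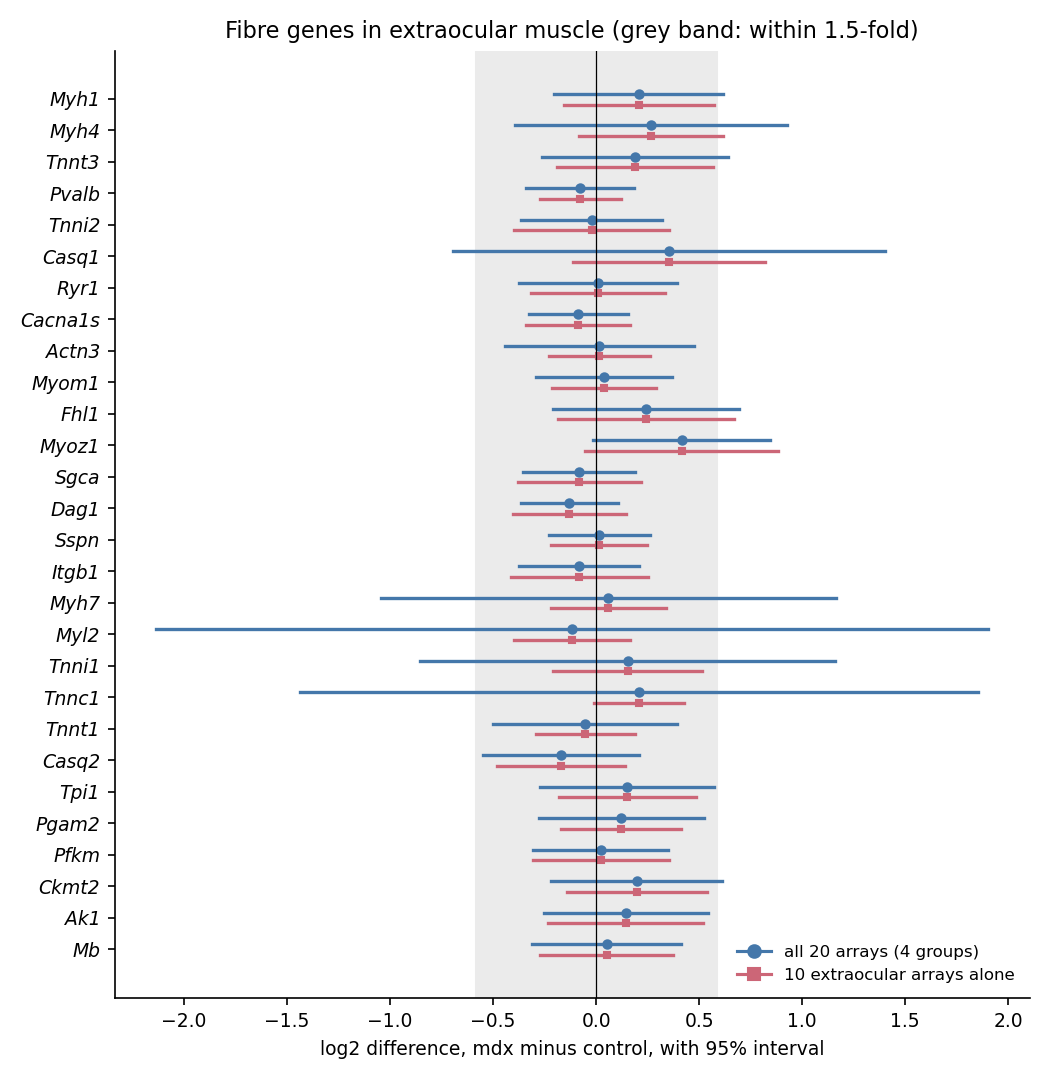
Log2 difference, mdx minus control, with its 95% interval for 28 fibre and energy genes in extraocular muscle, from the fit of all 20 arrays (blue circles) and of the 10 extraocular arrays alone (red squares); the grey band is 1.5-fold either way. All 28 intervals include 0, and those of Myh7, Myl2, Tnni1 and Tnnc1 shrink into the band once leg arrays are left out.

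No metabolic gene of the lists passed. Of 60 oxidative phosphorylation genes 0 passed in extraocular muscle (median log2 difference -0.03), where 23 fell and 1 rose in leg muscle (median -0.43). The only one of the 60 without overlap was the ATP synthase subunit Atp5j2, at 125 ± 13.5 against 178 ± 28.9. Of 27 fatty acid oxidation genes 0 passed (median -0.05), where 16 fell and 1 rose in leg muscle (median -0.47). Of 22 glycogen and glycolysis genes 0 passed (median 0.06), where 8 fell in leg muscle (median -0.42). The difference between the muscles itself passed, with the leg effect more negative, for 3, 4 and 2 of these genes, and with it more positive for 1 fatty acid oxidation gene. Pfkm, which commits sugar to glycolysis, was at 11786 ± 2293 against 11512 ± 1556 in extraocular muscle (interval -0.31 to 0.35) and fell by 0.56 on the log2 scale in leg muscle (limma adjusted p = 0.015). Tpi1 (-0.27 to 0.57) and Pgam2 (-0.28 to 0.52), later steps of that pathway, were held to 1.5-fold. Phkg1, the catalytic subunit of the kinase that starts glycogen breakdown, was the only member of the 22 without overlap, at 2056, 1777, 1775, 1843 and 2019 on control and 1631, 1497, 1523, 1396 and 1507 on mdx arrays (log2 difference -0.33, limma adjusted p = 0.955). It fell in leg muscle as well (log2 difference -0.68). The energy buffer genes Ckmt2, mitochondrial creatine kinase (16731 ± 2608 against 14697 ± 2826), Ak1, adenylate kinase (9789 ± 1987 against 8892 ± 2059), and Mb, the oxygen store myoglobin (10779 ± 2146 against 10309 ± 1304), overlapped between the groups.

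Genes of regenerating fibres showed no called difference. Of 14 genes of embryonic and denervated fibres 0 passed (median log2 difference 0.11), where 8 rose and 1 fell in leg muscle (median 0.83); the difference between the muscles passed for 5, all more positive in leg. Myh3, the embryonic myosin that marks new fibres, was at 779, 479, 629, 306 and 504 on control and 190.3, 482, 233, 250.1 and 533 on mdx arrays, with mdx arrays on the low side (log2 difference -0.73, limma adjusted p = 0.958). Myh8, the perinatal chain, was at 823 ± 201 against 701 ± 163. Tnnt2, the embryonic and cardiac troponin T, was at 422 ± 73.1 against 341 ± 35.6 in extraocular muscle and 752 ± 113 against 160.0 ± 22.8 in leg muscle. The neuromuscular junction genes, 12 tested, gave 0 passing (median -0.04), where 5 rose in leg muscle. Chrna1, the acetylcholine receptor subunit that spreads over denervated and immature fibres, was at 1970.2 ± 479.7 against 1635 ± 300.5 in extraocular muscle and 1161 ± 80.8 against 274 ± 63.7 in leg muscle. The difference of effects was 1.93 for Tnnt2 and 1.86 for Chrna1 on the log2 scale (limma adjusted p = 1.67e-05 and 4.08e-05). It also passed for Ncam1 (0.80), an adhesion protein of immature fibres.

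Of 31 satellite cell and myogenic genes 0 passed in extraocular muscle (median 0.12); 24 had a positive estimate, against 3375 of all 7204 probe sets. Myog, the regulator of fibre differentiation, was at 719, 1078, 322, 784 and 555 on control and 559, 879.6, 1328, 1128 and 930.4 on mdx arrays, overlapping widely (log2 difference 0.53, interval -0.06 to 1.12). It rose in leg muscle (1.54), and the difference of effects did not pass (limma adjusted p = 0.164). Peg3, an imprinted gene of muscle progenitors, was at 2757 ± 297 against 2291 ± 306 in extraocular and 1966 ± 341 against 476 ± 107 in leg muscle. Of 34 cell cycle genes 0 passed (median -0.10), where 13 rose in leg muscle (median 0.65).

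Macrophage genes had the largest positive median of the gene lists described here. Of 34 tested, 1 passed (Ctss), 8 were higher at an unadjusted p under 0.05 against 2.55% of all probe sets, and 27 had a positive estimate; the median was 0.45. In leg muscle 32 of the 34 rose (median 2.24), and the difference between the muscles passed for 25, all more positive in leg. Lgals3, a lectin of activated macrophages, was at 46.1, 113, 86.0, 17.5 and 82.5 on control and 409.6, 412, 79.7, 165 and 518 on mdx arrays. On mdx 3 it lay within the control range, and the difference of at least 3.56-fold did not pass (limma adjusted p = 0.104) except without mdx 3 (limma adjusted p = 0.00444). Mpeg1, a pore-forming protein of macrophages, was at 599.6, 412, 369, 354 and 526 on control and 674, 654, 561, 897 and 1022 on mdx arrays (limma adjusted p = 0.27). Mmp12, the macrophage elastase, was at 112, 37.1, 138, 209 and 84.5 on control and 225, 765, 334, 111 and 229.5 on mdx arrays (limma adjusted p = 0.715), and a second, dimmer probe set at 123 against 98.

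The shift was uneven over mdx arrays. Measured as the list's median log2 signal relative to the control mean, macrophage genes were at 0.68, 0.26, -0.01, 0.07 and 0.77 on mdx 1 to 5 and between -0.18 and 0.17 on the controls. The list median was 0.26 without mdx 5 and 0.29 without mdx 1. Of the markers that define macrophages, Cd68 was at 542 ± 43.1 against 456 ± 18.2, Csf1r at 798 ± 307 against 692 ± 173 and Lyz2 at 2192 ± 749 against 1636 ± 357, and none passed. Without mdx 5 the log2 difference went from 0.37 to 0.23 for Lyz2 and from 0.15 to -0.01 for Csf1r, and for Csf1r it was 0.05 without mdx 1 and 0.00 without control 1. In leg muscle all 3 rose, with mdx and control means of 2089.6 ± 481 against 489 ± 70.7 for Cd68, 2118 ± 501 against 434 ± 125 for Csf1r and 9099 ± 714 against 599 ± 255 for Lyz2. The summed signal of the 45 macrophage genes on the array was 14534 to 18892 in control and 15303 to 26842 in mdx extraocular muscle, and 61303 to 80937 in mdx leg muscle. In a bulk sample, more cells of a type and more RNA per cell cannot be told apart.

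Other immune groups stayed close to 0. Of 20 chemokine and cytokine genes 0 passed (median 0.17) and 2 were higher at an unadjusted p under 0.05, against 2.55% of all probe sets. These were Ccl2 and Osmr, the oncostatin M receptor (469 ± 43.9 against 325 ± 79.8). Ccr2, the receptor of Ccl2, was at 207 ± 40.4 against 144 ± 33.0 in extraocular and 794 ± 291 against 116 ± 54.1 in leg muscle. Of extraocular arrays only mdx 1, 2 and 5 reached 200 for Ccr2, and leg control arrays were at 180 or less. Ccr2 was therefore tested only because mdx leg arrays were bright. Of 20 antigen presentation genes 0 passed (median 0.05); H2-Ab1, a class II chain, was at 565, 147, 267, 181 and 332 on control and 834, 387, 259, 365 and 546 on mdx arrays, highest on mdx 1 and overlapping (limma adjusted p = 0.958). Of 12 complement genes 0 passed (median 0.08), with C1qb at 962 ± 541 against 624 ± 199.7, again highest on mdx 1 and mdx 5. The C1qb difference was 0.51 on the log2 scale, 0.28 without mdx 5 and 0.29 without mdx 1, and a dimmer probe set went the other way (156 against 232). C2, an early complement protease, was at 342 ± 129 against 488 ± 115 and was lower at an unadjusted p under 0.05. The counts in leg muscle were 12 of 20, 9 of 20 and 7 of 12 rising, and the difference between the muscles passed for 7, 7 and 5 genes, all more positive in leg.

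Interferon induced genes had mostly negative estimates, and the median was smaller without 1 control array. Of 21 tested, 0 passed, 4 were lower at an unadjusted p under 0.05 against 2.57% of all probe sets, and 20 had a negative estimate; the median was -0.41. The list lay at 0.89 on control 1 and between -0.37 and -0.15 on the other controls, and between -0.57 and -0.18 on mdx arrays. Iigp1, an immunity-related GTPase, was at 5373, 702, 862, 635 and 495 on control and 423, 589, 679, 411 and 303 on mdx arrays. Gbp3, a guanylate-binding protein, was at 3318, 859, 742, 747 and 418 on control and 475, 621, 576, 465 and 353 on mdx arrays. Ifit3, an antiviral protein, was at 1014, 449, 391, 248 and 371 on control and 296, 178, 120.4, 204 and 174 on mdx arrays, and here the controls other than control 1 also lay mostly above the mdx arrays (log2 difference -1.24, limma adjusted p = 0.652). Mx2 was at 175 ± 43.5 against 246 ± 55.0. Without control 1 the list median was -0.12, and the log2 difference went from -1.12 to -0.52 for Iigp1 and from -0.91 to -0.45 for Gbp3. The second Iigp1 probe set, at 1685, 401, 315, 296 and 349.7 on control and 200.5, 278, 177, 186 and 273 on mdx arrays, was among the largest decreases without overlap (log2 difference -1.09, and -0.63 without control 1).

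Matrix genes had a median near 0. Of 51 tested, 0 passed, 4 were higher and 0 lower at an unadjusted p under 0.05, against 2.55% and 2.57% of all probe sets, and the median was -0.02, where 35 rose and 1 fell in leg muscle (median 0.90). The difference between the muscles passed for 22, all more positive in leg. Those 4 were Mmp3 and Mmp12, given above, Ccn2, a secreted factor that promotes fibrosis (1135 ± 287 against 755 ± 147), and Col4a1, a chain of the basement membrane collagen (4179 ± 583 against 3474 ± 473, interval 0.01 to 0.52). Contractile genes of smooth muscle, which lies in vessel walls and in the connective tissue around the eye muscles, gave 0 of 15 passing (median 0.12) and 3 higher at an unadjusted p under 0.05, against the same 2.55%. These were Cnn1 (237, 139, 322, 161 and 218 on control and 536, 418, 515, 219 and 689 on mdx arrays, limma adjusted p = 0.715), Tagln (2616 ± 378 against 1975 ± 226) and Acta2 (3311 ± 765 against 2372 ± 381). The summed signal of the 17 smooth muscle genes was 26859 to 33761 in control and 27844 to 32411 in mdx arrays, so the list as a whole overlapped.

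Annexins and S100 proteins, calcium-binding proteins that gather at injured membranes and in inflammatory cells, gave 0 of 16 passing (median 0.21, against 9 rising and a median of 1.07 in leg muscle). Anxa1 was at 1032, 1434, 1244, 1089 and 967 on control and 2178, 1974, 1478, 1204 and 2675 on mdx arrays and Anxa2 at 1969, 2477, 2351, 2332 and 2141 on control and 4114, 3230.4, 2323, 2059.8 and 3984 on mdx arrays. For both, mdx 1, 2 and 5 were the highest of all 10 arrays, the same arrays that were high for Krt6a, Gsto1 and Lgals3. At an unadjusted p under 0.05, 3 of the 16 were higher and 1 lower, against 2.55% and 2.57% of all probe sets. The lower one was S100a5, at 224, 154, 88.6, 254 and 263 on control and 58.6, 60.6, 57.9, 243 and 102 on mdx arrays, overlapping through mdx 4 and mdx 5 (log2 difference -1.06, limma adjusted p = 0.955). S100a4, a protein of motile and fibroblast-like cells, was at 583 ± 101 against 367 ± 91.1 (limma adjusted p = 0.955). The leg effect was larger for Anxa1, Anxa2 and S100a4, by 1.86, 1.07 and 2.22 on the log2 scale.

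**Figure D4:**
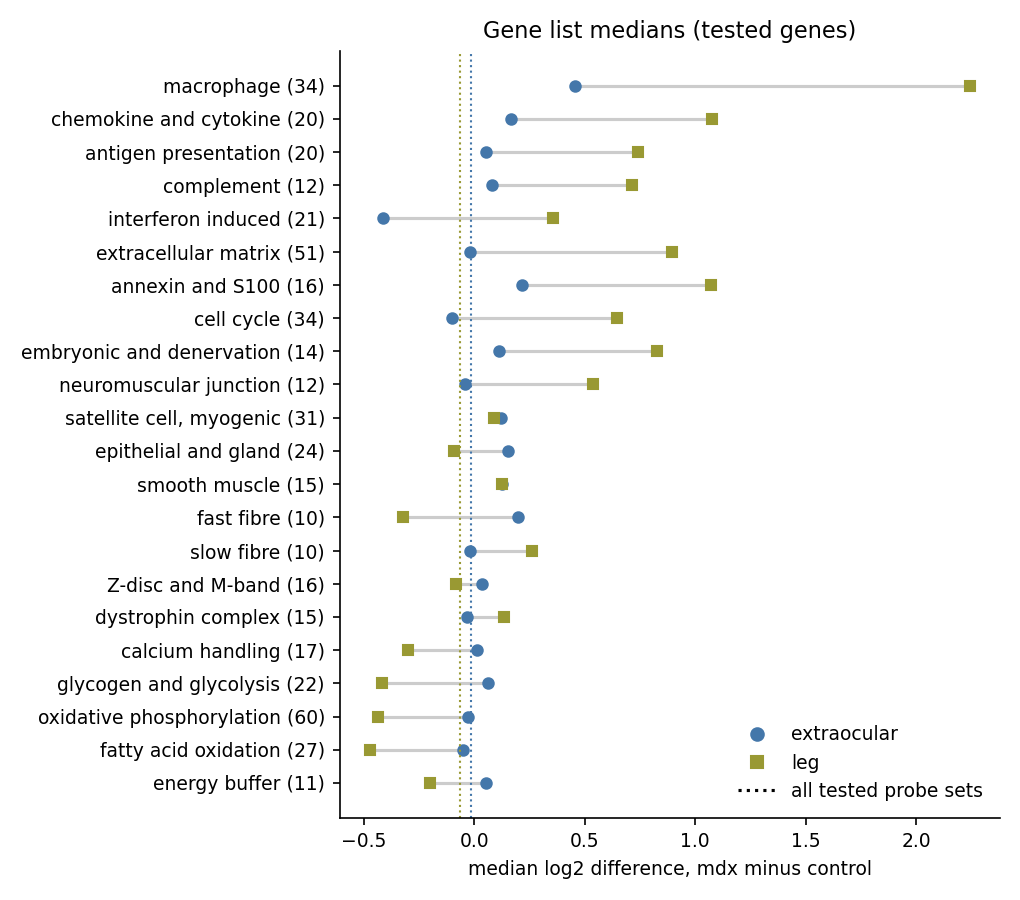
Median log2 difference, mdx minus control, of 22 gene lists in extraocular (blue circles) and leg muscle (olive squares), with the number of genes tested in brackets and dotted lines at the medians of all tested probe sets, -0.02 and -0.06. Extraocular medians lie between -0.41 and 0.45, and leg medians between -0.47 and 2.24.

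Several epithelial genes had higher signals in mdx extraocular muscle. Of 24 tested epithelial and gland genes 0 passed on the brightest probe set of each, 7 were higher and 1 lower at an unadjusted p under 0.05, against 2.55% and 2.57% of all probe sets, and the median was 0.15. Of the leading genes, Sfn, a cell cycle brake of keratinocytes, was at 225, 59.4, 103, 81.3 and 57.8 on control and 468, 285, 274, 151 and 382 on mdx arrays, with only control 1 inside the mdx range (3.17-fold, limma adjusted p = 0.27). Sfn fell under the filter on low signals without control 1, mdx 1, mdx 2, mdx 3 or mdx 5. Muc1, a mucin of epithelial surfaces, was at 505, 166, 186, 167 and 188 on control and 821, 471, 539, 551 and 558 on mdx arrays, again with only control 1 inside the mdx range (limma adjusted p = 0.652). Dsp, the desmoplakin of epithelial and cardiac junctions, was at 144, 152, 164, 93.0 and 79.4 on control and 259.7, 406, 197, 160.4 and 429.6 on mdx arrays (limma adjusted p = 0.862). In leg muscle none of these passed, and the difference between the muscles passed for Krt6a and Sfn (log2 -3.01 and -2.31, limma adjusted p = 0.00355 and 0.0227).

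Over the whole marker list, 14 of the 24 tested genes had a positive estimate, and the log2 differences ran from -0.80 to 1.67. Further epithelial genes were too dim to be tested. Of these, Krt8 had a mean of 117 in mdx against 79.4 in control arrays. Krt18 was at 159 against 156, Krt15 at 51.6 against 53.8 and Epcam at 26.9 against 36.0. The summed signal of the 42 epithelial and gland genes on the array was 16945 to 19207 in control and 19174 to 27909 in mdx arrays, the ranges just overlapping, with 31 of 42 genes, untested dim ones included, having the higher mean in mdx. By array the list median was highest on mdx 5, at 0.45, with 0.10 to 0.22 on the other mdx arrays and -0.14 to 0.12 on controls. Krt5 and Krt14, which define the basal layer of stratified epithelium, lay near the floor on every array except mdx 5 (142.9 and 95.9; elsewhere 35.2 to 80.04 and 23.7 to 55.1). The median fell from 0.15 to 0.06 without mdx 5 and to 0.04 without mdx 2, and was 0.43 over the 11 genes that reached 500. The part of tissue other than muscle in these values was not tested.

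**Figure D5:**
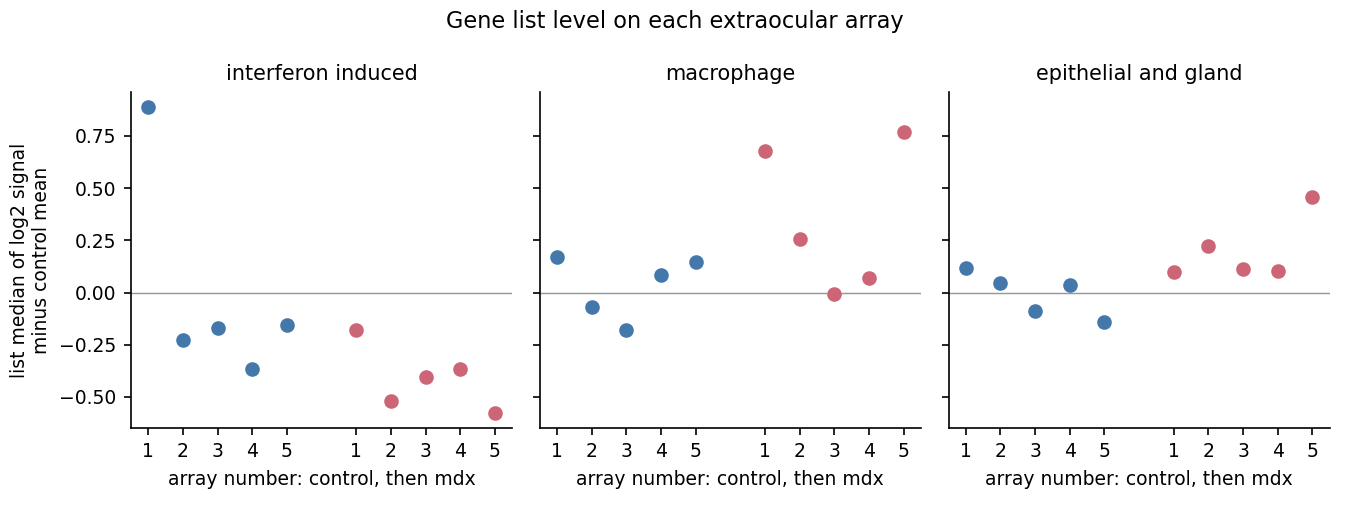
Median log2 signal of 3 gene lists (21 interferon induced, 34 macrophage and 24 epithelial genes) on each extraocular array, relative to the mean of the control arrays, for control (blue) and mdx arrays (red). Control 1 stands alone at 0.89 for interferon induced genes, mdx 1 and 5 are highest for macrophage genes at 0.68 and 0.77, and mdx 5 for epithelial genes at 0.45.

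Stress and hormone-responsive genes held few further differences. Of 34 metallothionein and antioxidant genes Mt2 alone passed (median 0.00); Prdx3, the mitochondrial peroxidase, was at 6763, 7764, 7567, 6627 and 7480.1 on control and 5332, 6863, 5695, 5000.2 and 4287 on mdx arrays, with the groups overlapping only by mdx 2 (log2 difference -0.43, limma adjusted p = 0.955). Of 21 glucocorticoid and fasting genes Mt2 alone passed (median 0.23). At an unadjusted p under 0.05, 3 were higher, Mt2 included, against 2.55% of all probe sets. The others were Per1, a clock gene that glucocorticoids also induce (447, 173, 168, 231 and 181 on control and 303, 502, 396, 382 and 489.9 on mdx arrays), and Zbtb16, a classical glucocorticoid target (3043, 1581, 1469.7, 1293 and 2316 on control and 2367, 2866, 3006, 2618 and 2709.8 on mdx arrays). For both, control 1 lay within or above the mdx range while the other controls lay below it. Neither passed (limma adjusted p = 0.715 and 0.955), and times of dissection are not given. Of 22 heat shock genes 0 passed (median 0.01). Bag3, a chaperone partner at the Z-disc, did not overlap, at 2625, 2692, 3176, 2839 and 2484 on control and 3306, 3349, 3658, 3223 and 3853 on mdx arrays (1.26-fold, limma adjusted p = 0.715), and its effect differed from that in leg muscle (log2 -0.50, limma adjusted p = 0.0404). A second Bag3 probe set overlapped between the groups, at 2655 ± 264 against 2434 ± 207 (log2 difference 0.12, limma adjusted p = 0.999).

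Tested directly, the mdx effect was more positive in leg than in extraocular muscle for 355 probe sets (4.93%) and more negative for 93 (1.29%), or 6.22% in all. Among the genes named here with a significant difference, leg muscle had the more positive effect for the macrophage, chemokine, annexin and embryonic genes, from 0.80 for Ncam1 to 3.69 for Lyz2 on the log2 scale. The effect in leg muscle was more negative for Krt6a, Sfn, Atp7b, Gsto1, Myom2 and Bag3. Their estimates were positive in extraocular and below 0 in leg muscle. Many genes named here were chosen for their extraocular difference. The test subtracts that difference, so a more negative leg effect was favoured for genes chosen for a rise. Of the 10 fits that each left out 1 extraocular array, Sfn was tested in 5 and Atp7b in 8. The Myom2 estimate also depends on the floor. Without leg control 1 and 4, 364 probe sets differed in place of 448.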

How the data were processed

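Total RNA of 20 muscle samples was measured on one-colour Affymetrix arrays. The deposited values are linear intensities of 12654 probe sets, per the labels and the values, with a trimmed mean near 1500 on every array; for the summarising software, a name was not given in the sources used here. The 66 control probe sets were left out, and each array was scaled to a 2% trimmed mean of 500. From these deposited intensities log2 values were computed after a floor of 50. Those reaching 200 on 5 or more arrays were fitted with limma 3.58.1 in R 4.3.3 (lmFit, eBayes with an intensity trend), 4 groups of 5 arrays, with 16 residual degrees of freedom and Benjamini-Hochberg adjustment. Precision is limited by the number of arrays. Of 12588 probe sets, 10276 had 1 gene symbol in the platform annotation, 363 several and 1949 none here; a list uses the brightest probe set of a gene.

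Genes named were those that passed, the 12 largest in each direction among those without overlap, up to 4 of smallest p per list (6 brightest for fibre lists), Dmd, Utrn, the myosin heavy chains and the tissue markers; Bpifa2 and second probe sets of named genes were added after their values were seen. Members and lists were chosen with earlier results of these data known. The fit was tested on simulated data. Alternatives were other floors, filters, scalings, array weights, extraocular arrays alone, a replicate block and leaving out arrays.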

Additional observations from a re-analysis of the deposited data

Results flagged for a closer look

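In 18 of 234 groups of 5 extraocular arrays (110 probe sets and the gene lists), 1 array lay far from the other 4 by its gap relative to the range of the group. Chance does so in about 1 group in 20, or 11.7 here. Control 1 was that array in 7 groups. It was high for Mt1 (3310 scaled signal), Mt2 (4025), Muc1 (505), Myom2 (96.4), both probe sets of Iigp1 (1685 and 5373) and the interferon induced list (median 0.89 log2 units relative to the control mean). For Myom2 the other 4 controls lay below the floor and were raised to it, so that flag follows from the floor.

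Control 5 was low for AI506816 (629), Myh8 (421) and Utrn (87.8) and high for Chrna1 (2171), and control 2 was low for Ccr2 (85.3). Among mdx arrays, mdx 5 was high for Dmd (175) and low for Cyp2c29 (69.0), and mdx 2 was high for Erdr1 (999.9). The array of mdx 4 was high for Mx2 (252.2) and low for the slow-fibre list (-0.19 log2 units), and mdx 1 was low for Syne4 (134).

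The mdx effect differed between leg and extraocular muscle for 30 of the 110 probe sets printed here by the limma test of the difference at an adjusted p under 0.05, against 6.22% of all tested. Many of those printed were chosen for the size of their extraocular difference. Leg effects were the more positive, in log2 units, for the macrophage genes Lyz2 (3.69), Lgals3 (3.68), Ctss (3.37), Mmp12 (3.22), Mpeg1 (2.32), Csf1r (2.18) and Cd68 (1.83). The same held for C1qb (2.77), Ccl2 (2.50), H2-Ab1 (2.40), Ccr2 (2.29), S100a4 (2.22), Anxa1 (1.86), Anxa2 (1.07), Mmp3 (1.91) and Evi2a (1.52). Genes of fibres and stress with a more positive leg effect were Ankrd1 (1.95), Tnnt2 (1.93), Chrna1 (1.86), Peg3 (1.78), Ncam1 (0.80), Mt1 (1.67) and Mt2 (1.03). Of the genes with a more positive leg effect, Lgals3, Ccr2, Evi2a and Ankrd1 were tested only because mdx leg arrays were bright. Leg effects were the more negative for Krt6a (-3.01 and -1.34 on its 2 probe sets), Sfn (-2.31), Atp7b (-1.58), Gsto1 (-1.54), Myom2 (-1.28) and Bag3 (-0.50).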

How the results depend on the processing

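The 6 probe sets that passed became 11 with a floor of 100, 11 with array weights, 3 without the filter, and 3 to 11 when single arrays were left out (3 without control 2, control 3 or mdx 5, and 11 without mdx 3). Chosen after seeing the data, leaving out mdx 5 and control 1 together gave 3. The 83 probe sets without overlap (1.15%) became 53 of 4234 (1.25%) with a minimum signal of 500. Without the filter they were 101 of 12588 (0.802%), and random labels give a probability of 0.00794 where no signals tie. They were 119 to 195 without single arrays (1.67% to 2.73%) and 246 without mdx 5 and control 1 (3.46%). Fewer arrays overlap less by construction. The 3330 held to 1.5-fold became 5583 of 12588 without the filter. Differences between the muscles numbered 324 to 513 over all settings. Mt2 and Erdr1 passed in every setting run. Krt6a, Ctss and AI506816 did not pass without the filter (limma adjusted p = 0.151, 0.136 and 0.136); the cause was not tested.

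Whether replicate numbers pair the arrays is not given by the labels and was not settled by the values. Same-number correlations were 0.02 to 0.23, all positive, and those of other pairs -0.15 to 0.14. Of the arrays, 2 mdx and 3 control arrays correlated best with their own number. With the replicate block 4 probe sets passed, without Krt6a (limma adjusted p = 0.125) and AI506816 (limma adjusted p = 0.0809). With 5 arrays a group the median width of the 95% interval was 0.89 on the log2 scale, which limits what can be called.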
